A study of Homo sapiens with 6 samples.

Results

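The genes described here carry glucose from the cell surface to acetyl-CoA or lactate: 32 genes of glucose uptake, glycolysis, lactate production and export, and pyruvate entry into mitochondria. They were chosen by name and matched to the gene symbols of the count files, which hold 60609 genes; all 32 were found and all passed the filter for low counts (a mean of 5 or more normalized counts). K562 is an established human leukaemia line of erythroid character. Endogenous EP400, the ATPase and scaffold subunit of the TIP60 complex, carries a homozygous C-terminal degradation tag in these cells. The cells of both groups received 500 nM dTAGV-1 during 24 h, which removes the tagged protein. A copy placed at the AAVS1 safe harbour locus supplied either wild-type EP400 (WT, 3 libraries) or EP400 without its SANT and HD domains, the region that holds TRRAP (Delta-TRRAP, 3 libraries). A single clone stood for each complemented line, so genotype and clone cannot be told apart and the p-values measure the spread between replicates of those clones. The comparison addresses how transcript levels differ when TIP60 is rebuilt without TRRAP.

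Glycolysis splits glucose into pyruvate in the cytosol. Glucose enters through facilitative transporters (GLUT proteins), hexokinase traps it by phosphorylation, and phosphofructokinase commits it to the pathway. Pyruvate is then either reduced to lactate by lactate dehydrogenase and exported by monocarboxylate carriers, or imported into mitochondria and oxidized by the pyruvate dehydrogenase complex, which pyruvate dehydrogenase kinases switch off. Most steps are served by several isozymes from separate genes, and many of these genes are known targets of HIF1 and MYC, factors that bind E-box-like DNA motifs.

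Counts assigned to genes ran from 35076835 to 42616061 per library. Normalized counts are raw counts divided by a library size scaled by TMM, a method that assumes that most genes do not differ. They are relative levels in bulk RNA, in which fewer cells of one state and less RNA per cell cannot be told apart. A gene was called changed at an edgeR quasi-likelihood adjusted p of 0.01 or less together with a fold change of at least 2. Transcripts encoded by mitochondrial DNA took 3.18 to 3.71% of the reads of WT libraries, against 5.07 to 6.24% for Delta-TRRAP. All 12 erythroid markers of K562 had counts in both groups, and their summed normalized count lay between 40204.5 and 43657 for WT, against 60702 to 67805 for Delta-TRRAP. The embryonic and adult alpha-type globin genes HBZ, HBA1 and HBA2 were called higher, LMO2 was called lower (5088.5 ± 110 and 2311.5 ± 111 normalized counts), and GATA1 and HBG1 passed the adjusted p downwards. Of 8 fibroblast markers 6 had counts in each group, with LUM at 0 throughout, and they summed to between 35.5 and 58.0 for WT, against 909.7 to 972.9 for Delta-TRRAP, nearly all of it COL1A2. Of 9 lymphocyte and myeloid markers 8 had counts in each group, with MS4A1 at 0 throughout, and their sum fell between 8538 and 9337.5 in WT and between 1316 and 1365 in Delta-TRRAP, most of it LYZ. The part of these shifts in the results was not tested. EP400 itself, counted from the tagged and the transgene transcripts together, stood at 4897, 4897 and 5377 normalized counts in WT and at 5533, 6833 and 4357 in Delta-TRRAP. Its log2 difference was 0.14 ± 0.11 (SE, edgeR adjusted p = 0.272), 0.29 without Delta-TRRAP replicate 3 (adjusted p = 0.00149) and -0.03 without Delta-TRRAP replicate 2, and a count per gene does not show which form was read.

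The pathway did not move as a block. SLC2A1 and PDK3 were called higher in Delta-TRRAP and SLC2A3 was called lower, 3 of the 32 genes, where 22.6% of all 19114 tested genes were called. In the separate directions, 16.5% of all tested genes were called higher and 6.08% lower. Glycolytic genes are highly expressed, and among the 6804 tested genes whose mean normalized count reached 1000 the called share was 6.31%; 24 of the 32 genes lay in that range and 2 of them were called. Smaller shifts were common inside and outside the set: 21 of the 32 genes passed the adjusted p alone, beside 58.3% of all tested genes. Of the 32 genes, 7 passed higher and 14 lower, beside 30.7% and 27.6% of all tested genes. At a mean of at least 1000, 16 of the 24 genes passed, beside 4624 of the 6804 tested genes. The 3 Delta-TRRAP libraries did not overlap the 3 WT libraries for 25 of the 32 genes, beside 71.1% of all tested genes. The median log2 difference over the 32 genes was -0.08, beside 0.03 over all tested genes and -0.14 over those with a mean of at least 1000. The scaling set this balance: with library size alone the median of all genes moved up by 0.14, and 12 of the 32 genes passed the adjusted p upwards and 9 downwards, with PFKFB2, TPI1, ENO3, PDK1 and PDHB entering and PFKP, PGK1, LDHA, SLC16A3 and DLAT leaving; with upper quartile scaling that median moved up by 0.10, and 9 passed upwards and 10 downwards. Of the 21 genes, 14 kept their direction and the adjusted p in all 15 alternative fits: SLC2A1, HK1, ALDOC, PDK3 and MPC1 rose, and SLC2A3, HK2, GPI, PFKM, PFKFB3, PKM, LDHB, SLC16A1 and MPC2 fell. The other 7 kept their direction and lost the adjusted p in at least 1 fit. Reads assigned to the 32 genes made up 0.877% ± 0.011 of all raw counts in WT and 0.966% ± 0.011 in Delta-TRRAP (SD, n = 3 each). This share is not scaled by TMM, whose factors were 0.952 to 0.957 for WT and 1.037 to 1.056 for Delta-TRRAP. A higher factor lowers the normalized counts of a library, so the difference in share is not a rise in normalized counts.

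**Figure D1:**
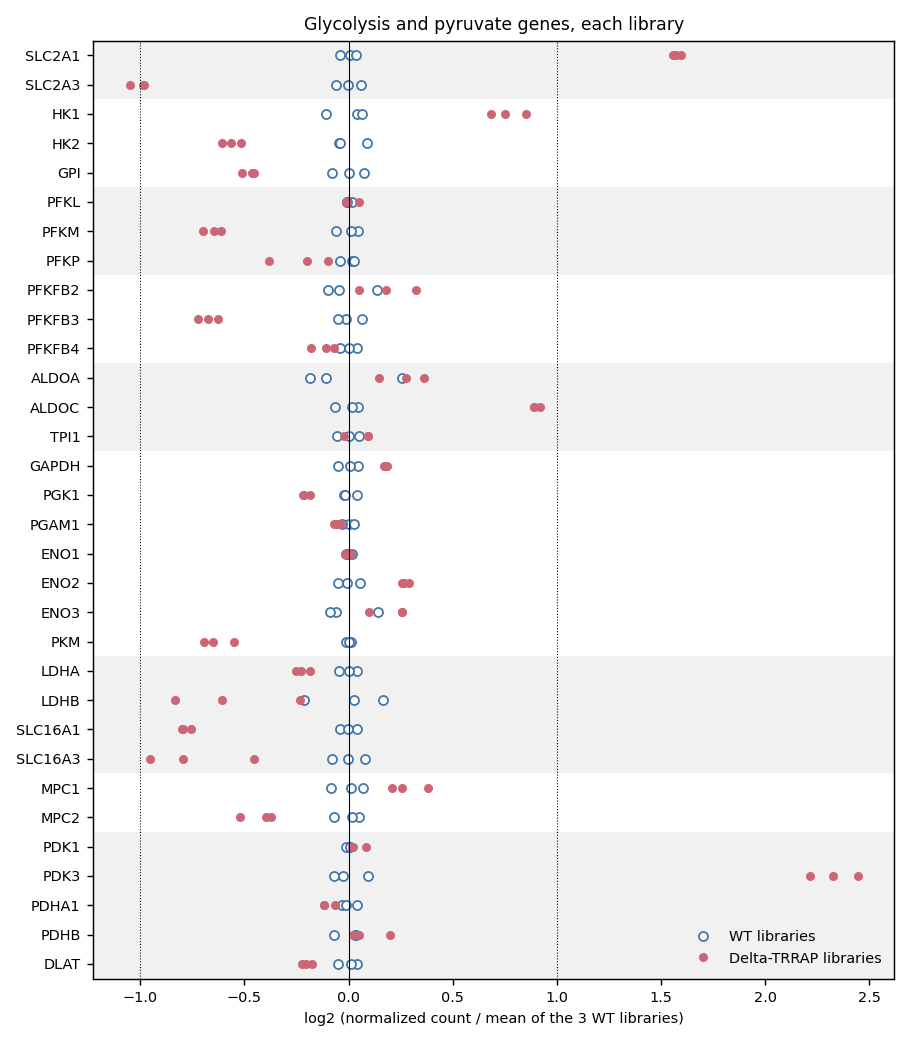
Each row is a gene, shaded in blocks by its place in the pathway, and each point is 1 library: open circles are the 3 WT and filled circles the 3 Delta-TRRAP libraries, on the log2 ratio of normalized count to the WT mean, with dotted lines at a 2-fold change. PDK3 and SLC2A1 lie right of the upper line and SLC2A3 lies at the lower one, while the ENO1 libraries of both groups coincide.

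The promoters are shown for the 3 genes with the largest rises and for LDHA. Its window holds the most matches to ACGTG, a HIF1 and MYC type of motif, when both strands are counted. Each window runs from 250 bases before to 50 bases after the RefSeq start (GRCh38.p14), is written 5′ to 3′ on the strand of the gene, and has capitals where the letters ACGTG occur on either strand. Windows were found for 29 of the 32 genes, all but SLC2A3, PFKFB2 and SLC16A1. They lie at chr1:42958819-42959118 (minus strand) for SLC2A1, chrX:24465036-24465335 (plus strand) for PDK3, chr17:28576846-28577145 (minus strand) for ALDOC and chr11:18394313-18394612 (plus strand) for LDHA.
SLC2A1: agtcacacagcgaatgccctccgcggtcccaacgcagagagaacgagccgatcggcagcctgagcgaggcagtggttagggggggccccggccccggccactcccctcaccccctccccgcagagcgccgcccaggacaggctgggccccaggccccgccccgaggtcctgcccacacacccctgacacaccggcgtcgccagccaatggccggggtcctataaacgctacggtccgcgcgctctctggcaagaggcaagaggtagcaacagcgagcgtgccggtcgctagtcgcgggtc
PDK3: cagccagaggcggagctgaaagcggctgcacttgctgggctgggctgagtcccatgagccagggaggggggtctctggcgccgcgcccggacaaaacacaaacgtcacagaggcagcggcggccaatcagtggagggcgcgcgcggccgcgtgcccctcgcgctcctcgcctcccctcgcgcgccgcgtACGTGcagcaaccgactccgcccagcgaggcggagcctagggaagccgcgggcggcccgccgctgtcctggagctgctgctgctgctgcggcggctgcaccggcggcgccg
ALDOC: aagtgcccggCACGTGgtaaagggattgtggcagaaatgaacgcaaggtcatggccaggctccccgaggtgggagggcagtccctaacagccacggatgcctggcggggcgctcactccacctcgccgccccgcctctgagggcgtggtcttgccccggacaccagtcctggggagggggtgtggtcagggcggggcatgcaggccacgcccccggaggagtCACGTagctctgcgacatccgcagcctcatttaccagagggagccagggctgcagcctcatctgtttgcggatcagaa
LDHA: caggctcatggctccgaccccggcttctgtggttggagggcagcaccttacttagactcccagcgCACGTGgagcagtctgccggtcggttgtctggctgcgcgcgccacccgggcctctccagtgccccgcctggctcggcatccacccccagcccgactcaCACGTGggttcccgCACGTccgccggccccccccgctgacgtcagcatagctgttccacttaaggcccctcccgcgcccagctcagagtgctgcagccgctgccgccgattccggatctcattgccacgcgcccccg

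The SLC2A1 window holds no ACGTG and has TATAAA 31 bases before the start, whereas PDK3 has a single ACGTG 61 bases before its start. The related letters GCGTG were not searched, although the printed SLC2A1 and PDK3 windows hold them. ALDOC and LDHA each hold CACGTG, which reads the same on both strands and so counts as ACGTG on each. LDHA has 5 matches counted this way, the most of the 29 windows, and its transcript level fell. Its matches include 2 CACGTG, so in separate places LDHA does not lead PGK1, which has 3 matches and no CACGTG. Across the set ACGTG occurred in 11 of 29 windows, beside 21.6% of all 27305 windows, CACGTG in 4 beside 7.44%, and TATAAA in 3 beside 11.9%. The windows with ACGTG belonged to HK2, GPI, ALDOA, ALDOC, GAPDH, PGK1, ENO2, LDHA, PDK3, PDHB and DLAT, genes that rose as well as genes that fell. The median GC content was 70.0% in the 29 windows and 58.3% in all windows, and such letter matches are descriptions, not binding sites.

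The glucose transporters changed in opposite directions. SLC2A1 encodes GLUT1, the transporter of red cells and of the blood-brain barrier (chromosome 1, 42925353 to 42958893, minus strand, GRCh38). It stood at 7279, 7045 and 7431 normalized counts in WT and at 21936, 21537.5 and 21359.5 in Delta-TRRAP. Every Delta-TRRAP library was far above every WT library, and the spread within each group was small. The rise was 2.98-fold, a log2 difference of 1.58 ± 0.05 (SE; 95% confidence interval 1.47 to 1.68; adjusted p = 6.4e-13). SLC2A3 (GLUT3, a high-affinity transporter known from neurons and white blood cells; chromosome 12, 7919230 to 8019007, minus strand) went from 10205.5, 10619 and 11096 in WT to 5385, 5368 and 5134 in Delta-TRRAP. The groups were again well apart, in the opposite direction, and the level in Delta-TRRAP was 0.498 of that in WT (log2 difference -1.01 ± 0.05, adjusted p = 1.77e-10). That ratio sits on the 2-fold limit: the log2 difference was -0.99 without Delta-TRRAP replicate 3, -0.98 without WT replicate 3, -0.87 with library size alone, -0.91 with upper quartile scaling and -0.93 when only genes with a mean of 50 or more were kept, and the call was lost in each although the adjusted p was kept.

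Divided by transcript length, SLC2A1 gave 43.5% ± 1.0 of the summed SLC2A1 and SLC2A3 level in WT and 82.2% ± 0.3 in Delta-TRRAP. SLC2A3 was the more abundant of the pair in each WT library and SLC2A1 in each Delta-TRRAP library. The sum of both, in normalized counts per kb, went from 4923 ± 150 to 7770.0 ± 118, a ratio of 1.58. SLC2A14, a near-identical copy of SLC2A3, also went down, from 158 ± 28 to 67.7 ± 7.5 normalized counts (log2 difference -1.23, adjusted p = 3.61e-06). Reads shared by these copies were discarded upstream, so the level of each is uncertain. SLC2A12, another GLUT family member, rose from 88.6 ± 4.1 to 819 ± 57 normalized counts (log2 difference 3.21, adjusted p = 1.68e-13), which still left it far below SLC2A1.

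The first enzymes of the pathway repeated this pattern of isozymes that part ways. HK1, the hexokinase that most cells express and the main one of red cells, stood at 21125, 23368 and 23781 normalized counts in WT and at 38268.5, 41090.2 and 36505 in Delta-TRRAP. All Delta-TRRAP libraries were higher, by 1.70-fold (log2 difference 0.76 ± 0.06, adjusted p = 2.51e-08). HK2, the form induced in growing and hypoxic cells, stood at 3586, 3598 and 3940 in WT and at 2503.5, 2594 and 2431 in Delta-TRRAP, all lower (log2 difference -0.56 ± 0.05, adjusted p = 2.16e-07). HK1 thus made up 90.5% ± 0.4 of hexokinase transcripts per kb in WT and 96.0% ± 0.1 in Delta-TRRAP. The size of this shift depends on the transcript length used: it was 5.47 percentage points here, 8.93 with the length of all exons (an alternative chosen after seeing the data) and 7.93 with no division by length. GPI, which turns glucose 6-phosphate into fructose 6-phosphate, fell from 10243 ± 542 to 7370 ± 154 (log2 difference -0.47 ± 0.05, adjusted p = 1.1e-06).

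**Figure D2:**
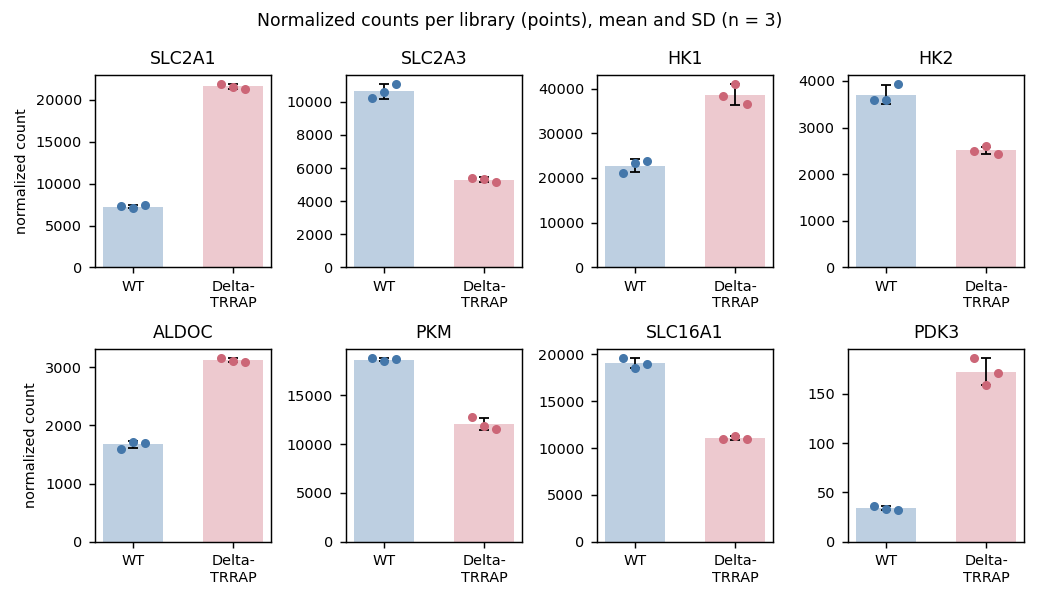
Normalized counts of 8 genes, with points for single libraries, bars for the mean and whiskers for the SD of 3 libraries, each panel on its own axis from 0. The WT and Delta-TRRAP points are apart in every panel: SLC2A1, HK1, ALDOC and PDK3 are higher in Delta-TRRAP, and SLC2A3, HK2, PKM and SLC16A1 are lower.

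Of the phosphofructokinases, the liver form PFKL did not separate between groups. It stood at 3472, 3537 and 3479 normalized counts in WT and at 3615.5, 3475 and 3464 in Delta-TRRAP, ranges that overlap. Its log2 difference was 0.01 (95% confidence interval -0.09 to 0.11), with a sign that turned in 4 of the alternative fits. PFKM, the muscle form, fell from 1892, 2035 and 1985 to 1259, 1288 and 1215 (log2 difference -0.65 ± 0.05, adjusted p = 3.05e-08). PFKP, the platelet form, was lower by less, 2714 ± 70 against 2325 ± 225 (log2 difference -0.22, adjusted p = 0.00614), and lost the adjusted p without Delta-TRRAP replicate 1 (0.0134), Delta-TRRAP replicate 3 (0.0158), WT replicate 2 (0.0184) or WT replicate 3 (0.01996). As shares of the family per kb, PFKL held 41.9% ± 0.6 in WT and 48.4% ± 1.9 in Delta-TRRAP, PFKM held 22.2% ± 0.4 and 16.2% ± 0.3, and the shares of PFKP overlapped between groups.

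The PFKFB enzymes make and break fructose 2,6-bisphosphate, the strongest activator of phosphofructokinase. PFKFB3, the isoform with the highest kinase activity, fell from 1159, 1130.0 and 1223 normalized counts in WT to 709, 758 and 734 in Delta-TRRAP (log2 difference -0.67 ± 0.06, adjusted p = 6.33e-08). PFKFB2 was at 2268 ± 196 and 2582.5 ± 244, with overlapping libraries (log2 difference 0.19, adjusted p = 0.0317; 0.00264 without Delta-TRRAP replicate 3 and 0.00789 without WT replicate 3). PFKFB4 was at 755 ± 21 and 695 ± 27 (log2 difference -0.12, 95% confidence interval -0.25 to 0.01). Per kb, PFKFB3 made up 32.7% ± 0.4 of the family in WT and 22.3% ± 1.2 in Delta-TRRAP, while PFKFB2 held 40.1% ± 1.7 and 49.6% ± 1.8.

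ALDOC, the aldolase best known from brain, which cleaves fructose 1,6-bisphosphate, had 1601, 1723 and 1694 normalized counts in WT and 3159.5, 3104 and 3099 in Delta-TRRAP. It nearly reached the fold limit, at 1.87-fold (log2 difference 0.90 ± 0.05, adjusted p = 4.6e-10), and passed it with library size alone (log2 difference 1.03) and with upper quartile scaling (1.0008). ALDOA, the major aldolase of most tissues, cannot be judged: 89.8% of the bases of its main transcript are shared on the same strand with another annotated gene, ENSG00000285043, and union counting discards reads that touch both. What remained was 121 ± 21 normalized counts in WT and 146 ± 11 in Delta-TRRAP, so the aldolase total is not interpretable. TPI1, the triose phosphate isomerase, stood at 17084 ± 611 and 17760.3 ± 791 (log2 difference 0.06, 95% confidence interval -0.06 to 0.17).

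The enzymes of the second stage, which yield ATP and NADH, include the most abundant transcripts of the set, and apart from PKM their log2 differences lay between -0.21 and 0.27. ENO1, the enolase of most cells, had 80613, 80295 and 81793 normalized counts in WT and 81496, 79982 and 80387 in Delta-TRRAP. The groups overlapped, and the log2 difference was -0.005 ± 0.048 (95% confidence interval -0.11 to 0.10), with the sign turned in 4 alternative fits. GAPDH rose from 50938 ± 1734 to 57624 ± 281 (log2 difference 0.18, adjusted p = 0.00503), and its adjusted p was 0.0271 without Delta-TRRAP replicate 1, 0.0277 without WT replicate 1, 0.0136 without WT replicate 2, 0.0199 without WT replicate 3 and 0.0151 with the replicate number as a block. PGK1, a phosphoglycerate kinase, fell from 20321 ± 519 to 17612 ± 208 (log2 difference -0.21, adjusted p = 0.00142; 0.0107 without WT replicate 2). PGAM1, the phosphoglycerate mutase, differed by -0.05 (95% confidence interval -0.16 to 0.05). GAPDH and PGAM1 have many processed pseudogenes, and reads that match more than 1 place were not counted.

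ENO2, the neuronal enolase, rose from 513, 552 and 528 to 649, 638.5 and 634 normalized counts (log2 difference 0.27 ± 0.06, adjusted p = 0.00126; 0.01002 without WT replicate 1), and ENO3, the muscle form, had overlapping libraries (log2 difference 0.21, adjusted p = 0.0565). These rare forms left ENO1 at 99.1% of enolase transcripts per kb in WT and 98.9% in Delta-TRRAP. PKM, the pyruvate kinase gene whose splicing gives the M1 and M2 forms, stood at 18787, 18467 and 18707 in WT and at 12726, 11876 and 11537 in Delta-TRRAP. Every Delta-TRRAP library was lower, the log2 difference was -0.63 ± 0.05 (adjusted p = 3.72e-08), and a count per gene does not separate the splice forms.

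All 4 genes of lactate formation and export passed the adjusted p and were lower in Delta-TRRAP. Their sign was the same in every alternative fit that kept the gene. Of all tested genes, 27.6% passed the adjusted p downwards. LDHA and SLC16A1 had means above 1000, a level at which 4624 of the 6804 tested genes passed in either direction. The median log2 difference at that level was -0.14. SLC16A1 (chromosome 1, 112911847 to 112957593, minus strand), which encodes MCT1, the carrier that moves lactate and pyruvate across the plasma membrane, had 19617, 18550.3 and 19009 normalized counts in WT and 10964, 11286 and 10999.7 in Delta-TRRAP. This was the second largest fall of the set, to 0.582 of the WT level (log2 difference -0.78 ± 0.05, 95% confidence interval -0.89 to -0.68, adjusted p = 1.64e-09). SLC16A3, which encodes MCT4, the exporter of strongly glycolytic cells, was scarce: 58.8, 55.6 and 62.1 in WT against 30.4, 42.9 and 33.9 in Delta-TRRAP (log2 difference -0.71 ± 0.18, adjusted p = 0.00275; 0.0188 without Delta-TRRAP replicate 1 and 0.0108 without WT replicate 3). SLC16A1 made up 99.6% of the carrier transcripts per kb in WT and 99.5% in Delta-TRRAP, and the family sum in Delta-TRRAP was 0.582 of that in WT. BSG, the chaperone that brings MCT1 and MCT4 to the membrane, moved the other way, from 11045 ± 76 to 15920.0 ± 373 (log2 difference 0.53, adjusted p = 1.17e-07).

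LDHA, the lactate dehydrogenase subunit that favours lactate formation, fell from 43384, 45998 and 44885 normalized counts to 37627, 38158 and 39363 (log2 difference -0.22 ± 0.05, adjusted p = 0.00104). The groups did not overlap, but under library size alone the log2 difference was -0.09 (adjusted p = 0.119). LDHB, the subunit of heart and red cells, went from 699, 769 and 592 to 451, 385 and 584 (log2 difference -0.54 ± 0.12, adjusted p = 0.00108). Its groups are separated by a narrow margin, and 76.5% of the bases of its main transcript are shared with another gene, ENSG00000285854, so its count holds only part of its reads.

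**Figure D3:**
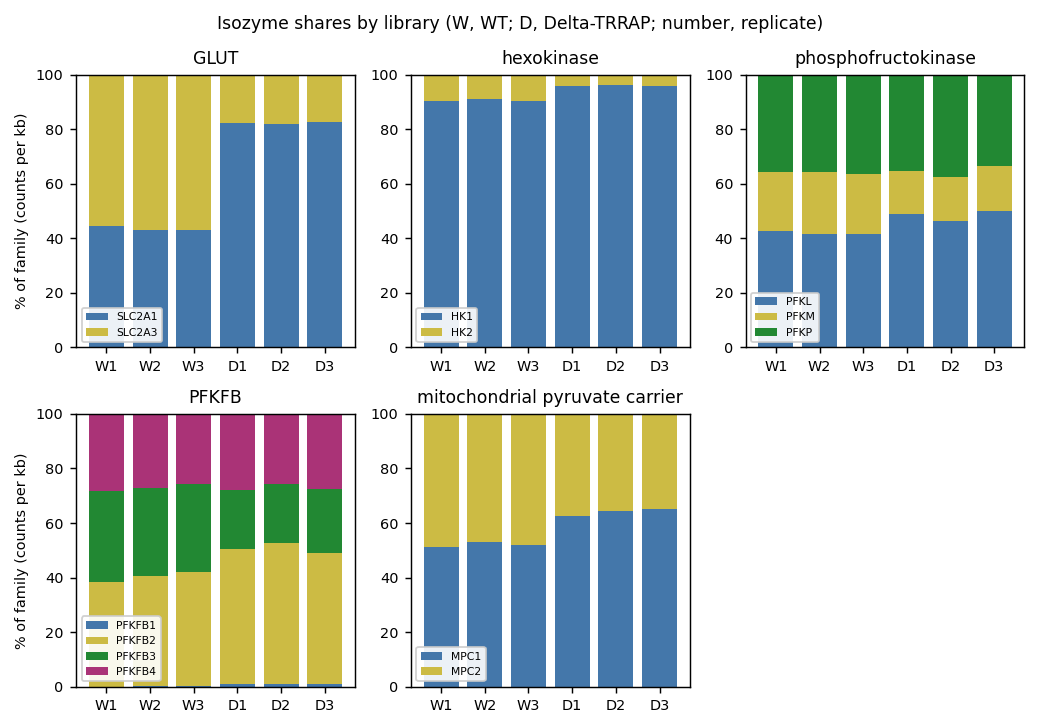
Stacked bars give the share of each isozyme in its family's normalized counts per kb of transcript, in percent, for each of the 3 WT (W1 to W3) and 3 Delta-TRRAP (D1 to D3) libraries; isozymes that average under 0.5% in both groups are left out. SLC2A1 goes from 43.5% to 82.2% of the GLUT pair and MPC1 from 52.0% to 64.0% of the pyruvate carrier, and HK1 from 90.5% to 96.0% of the hexokinases.

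The mitochondrial pyruvate carrier is a pair of MPC1 and MPC2, which are needed together. MPC1 stood at 2910.1, 3026.5 and 2724 normalized counts in WT and at 3446, 3332 and 3756 in Delta-TRRAP, all higher (log2 difference 0.28 ± 0.06, adjusted p = 5.26e-04). MPC2 stood at 6776, 6617 and 6225 in WT and at 5047, 4556.5 and 4975 in Delta-TRRAP, all lower (log2 difference -0.43 ± 0.06, adjusted p = 5.96e-06). Per kb of transcript the partners were near parity in WT, with MPC1 at 52.0% ± 0.8, and MPC1 reached 64.0% ± 1.2 in Delta-TRRAP, while their sum was 6135 ± 280 and 6070.2 ± 329. Both the parity and the sum depend on the transcript length used. It was 904 bases for MPC1 and 2223 for MPC2 here, whereas the length of all exons is 1540 and 2638. With no division by length, MPC2 had the higher normalized count in every library.

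Of the pyruvate dehydrogenase complex, the E1 subunits encoded by PDHA1 and PDHB did not pass the test. PDHA1 was at 8227 ± 215 and 7682 ± 165 (log2 difference -0.10, 95% confidence interval -0.20 to 0.005) and PDHB at 2111 ± 86 and 2249 ± 150 (log2 difference 0.09, 95% confidence interval -0.03 to 0.21). DLAT, the E2 subunit, was lower, at 10646 ± 353 and 9258 ± 145 (log2 difference -0.20, adjusted p = 0.00197; 0.0123 without Delta-TRRAP replicate 1 and 0.0128 without WT replicate 2). Of the genes outside the set, PDHX, the subunit that anchors E3, rose by 0.33 on the log2 scale (adjusted p = 2.85e-05), and DLD, E3 itself, fell by 0.24 (adjusted p = 4.94e-04).

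PDK3 (X chromosome, 24465244 to 24550466, plus strand), a kinase that shuts the complex down, had the largest fold change of the set but started from a very low level. It stood at 36.5, 33.6 and 32.6 normalized counts in WT and at 186, 159 and 171 in Delta-TRRAP, 5.02-fold higher (log2 difference 2.33 ± 0.14, 95% confidence interval 2.02 to 2.63, adjusted p = 1.24e-09). PDK1, the isoform most tied to hypoxia, was at 1778 ± 12 and 1829 ± 47 (log2 difference 0.04, 95% confidence interval -0.06 to 0.15). Both kinases outside the set also moved up: PDK2 went from 6.28 ± 2.82 to 106 ± 7 normalized counts (log2 difference 4.05, adjusted p = 1.07e-09) and PDK4 from 2025 ± 63 to 3865 ± 237 (log2 difference 0.93, adjusted p = 1.05e-09). The summed kinase level per kb was 710 ± 17 in WT and 1334 ± 59 in Delta-TRRAP, and PDK4 gave most of it, 79.2% and 80.4%. Shares within this family depend on the transcript length used, with a difference for PDK4 of 1.26 percentage points here and 6.39 with the length of all exons: the main transcript of PDK1 is 14072 bases long and that of PDK3 1741.

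Position on the chromosome was compared because genes of the same region can shift together. For each gene the median log2 difference of genes within 5 Mb whose mean normalized count reached 100 was computed; over all 11459 such genes the median was -0.09. GPI on chromosome 19 had a neighbour median of -0.44 (98 genes, 79.6% below 0), close to its own -0.47. PFKM on chromosome 12 had a neighbour median of -0.42 within 5 Mb and -0.74 within 2 Mb, beside its own -0.65. MPC2 on chromosome 1 had a neighbour median of -0.34 beside its own -0.43, and MPC1 on chromosome 6 had 0.21 from 17 neighbours within 5 Mb and 0.48 from 6 within 2 Mb, beside its own 0.28. Among the smaller changes, PGK1 (-0.21) and DLAT (-0.20) lay near their neighbour medians within 5 Mb, -0.20 and -0.22; within 2 Mb these were -0.01 and -0.10. The part of the region in the change of each gene was not tested. SLC2A1, SLC2A3, HK1, HK2, ALDOC, PKM, SLC16A1 and PFKFB3 lay among neighbours with medians between -0.12 and 0.01, and PDK3 rose among neighbours with a median of -0.33. With the neighbour median subtracted from each gene, the median over the 32 genes was 0.006.

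**Figure D4:**
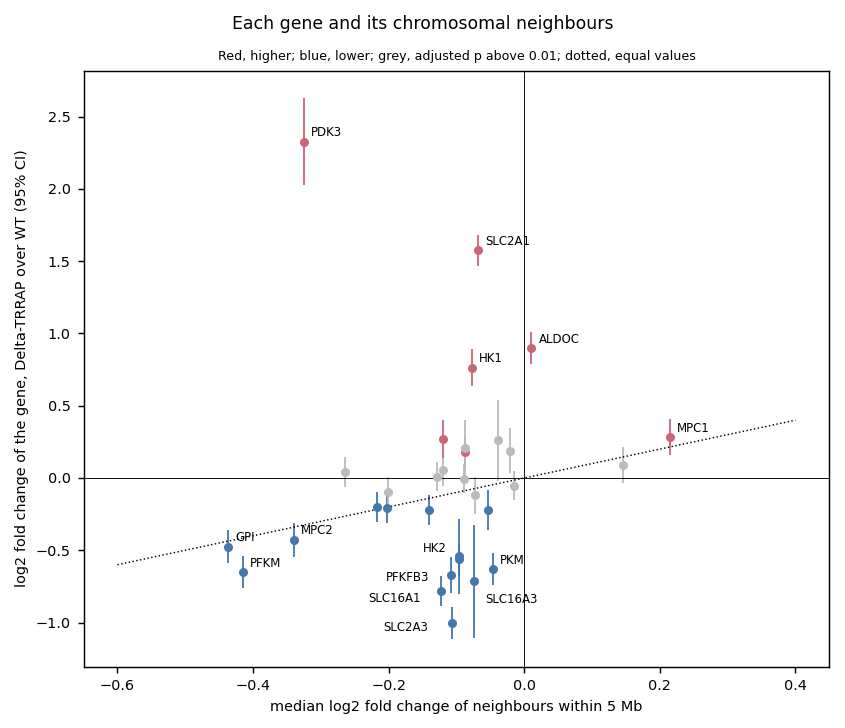
Each point is 1 of the 32 genes, with its own log2 difference and 95% confidence interval on the vertical axis and the median log2 difference of its neighbours within 5 Mb on the horizontal axis; the dotted line marks equal values. GPI, MPC2 and MPC1 lie on or near that line, whereas SLC2A1, PDK3, HK1 and ALDOC lie well above it and SLC2A3, SLC16A1 and PKM well below.

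Other genes of the same metabolism were counted from lists written by hand. Of 36 further glycolysis and pyruvate genes 23 could be tested, with 6 called higher and 1 lower; 11 were past the adjusted p upwards and 6 downwards, with a median log2 difference of 0.33. Many of these are scarce in K562, and the called ones include BPGM, which makes the red cell effector 2,3-bisphosphoglycerate, from 1328 ± 51 to 3246 ± 126 normalized counts (log2 difference 1.29, adjusted p = 1.53e-11). In the pentose phosphate pathway 1 of 8 genes was called, the endoplasmic reticulum enzyme H6PD, from 229.5 ± 23.9 to 1120.4 ± 90.4 (log2 difference 2.29), and 3 genes passed the adjusted p in each direction. In the tricarboxylic acid cycle 0 of 16 genes were called by edgeR, and also 0 by DESeq2 and by limma-voom. Most of the 16 genes had a mean of at least 1000, a level at which 6.31% of tested genes were called. Of the 16 genes, 8 had an unadjusted p under 0.05, 5 passed the adjusted p upwards and 2 downwards, and the median was 0.05.

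Hypoxia-responsive genes outside glycolysis were mixed: of 17 tested, 4 were called higher and 1 lower, with 8 past the adjusted p upwards and 5 downwards, and a median of 0.18. NDRG1, a stress-induced gene, rose from 63.3 ± 5.0 to 667 ± 40 normalized counts, EGLN3, an oxygen-sensing prolyl hydroxylase, rose from 782 ± 31 to 1567 ± 78, and HILPDA, a lipid droplet protein, fell from 577 ± 33 to 283 ± 14. EGLN3, at 2.002-fold, and HILPDA, at 0.491 of its WT level, lay close to the 2-fold limit. Of 8 regulators 1 was called, in the higher direction, with 5 past the adjusted p upwards and 1 downwards. HIF1A was at 2242 ± 120 and 2762.5 ± 110 (log2 difference 0.30, adjusted p = 1.7e-04), EPAS1, which encodes HIF2-alpha, rose by 0.74 on the log2 scale (adjusted p = 4.86e-08), and MYC, at 0.04 (95% confidence interval -0.07 to 0.15), and ARNT, at 0.04, did not pass the test. ARRDC4 and TXNIP, arrestin-family genes that glucose induces and that restrain glucose uptake, rose from 891 ± 45 to 3536.5 ± 75 (log2 difference 1.99, adjusted p = 1.41e-13) and from 7066 ± 346 to 12571 ± 246 (log2 difference 0.83, adjusted p = 1.66e-09). Of the glucose-sensing factors that act on those genes, MLXIP fell by 0.32 and MLXIPL rose by 0.90 on the log2 scale (adjusted p = 8.42e-05 and 1.4e-06). Over all tested genes, 22.6% were called and 58.3% passed the adjusted p.

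**Figure D5:**
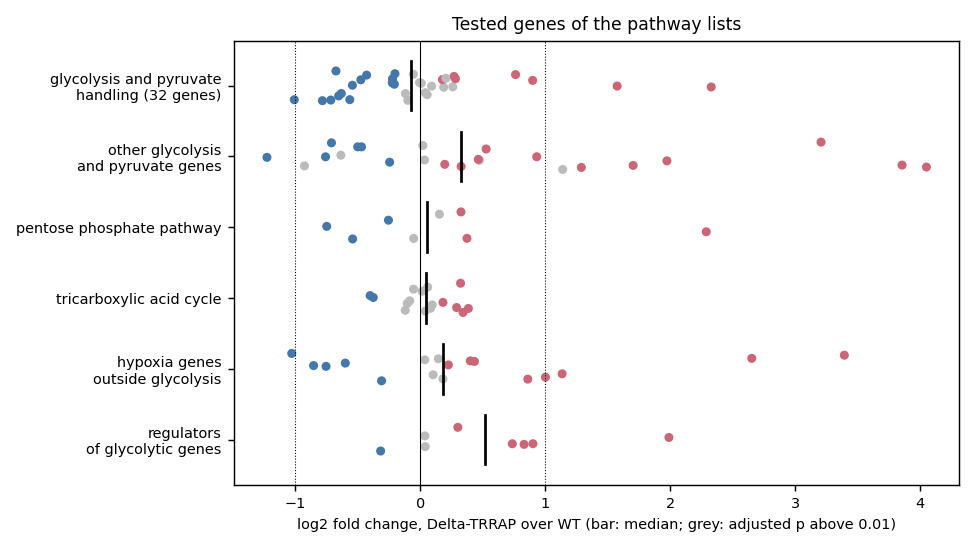
Each point is a tested gene, placed by its log2 difference (Delta-TRRAP over WT) and coloured red or blue where higher or lower at an adjusted p of 0.01 or less and grey otherwise; black bars mark list medians and dotted lines a 2-fold change. The median is -0.08 for the 32 genes and 0.05 for the tricarboxylic acid cycle, whose points all lie inside the dotted lines, and 0.52 for the regulators.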

How the data were processed

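Poly(A) RNA of 6 K562 libraries (3 WT, 3 Delta-TRRAP) was examined, grouped by sample title. The authors aligned reads to hg38 with STAR, kept uniquely mapping reads, and deposited counts per gene from reverse-stranded htseq-count (HTSeq 2.0.2, union mode, GENCODE release 32 genes); these deposited counts are not normalized. Discarding multi-mapping and ambiguous reads lowers genes with near-identical copies or same-strand overlaps. The authors' series tables were not used: they hold normalized values, with 3 value columns of samples outside this comparison, and the DESeq2 comparison of the authors.

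Counts of 34998 genes with a read were filtered at a mean normalized count of at least 5, which left 19114 genes, scaled by TMM and tested with the edgeR 4.0.16 quasi-likelihood F test (R 4.3.3, group as the only term, Benjamini-Hochberg adjustment over all 19114 genes). The thresholds, an adjusted p of 0.01 and a 2-fold change, are those of the study, which used DESeq2. A log2 difference is Delta-TRRAP over WT; errors are the SD over 3 libraries or the SE of the fit. For a single gene, 3 libraries against 3 cannot give an exact permutation p below 0.1. The scripts were checked on simulated counts. Levels per kb used canonical transcripts of GENCODE release 44 on GRCh38, which matched 19041 of the tested gene IDs, and promoter windows came from RefSeq. The alternatives were DESeq2 1.42.0, limma-voom (limma 3.58.1), RLE, upper quartile or no scaling, TMM without mitochondrial genes, no filter or a mean of at least 50, changed thresholds, a replicate block, and omission of each library in turn.

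All 32 genes are named; from other lists, all regulators and at most the 4 called genes with the largest change and a mean of at least 100, plus family partners and EP400. The members and lists were chosen with earlier results of these data known. Same-numbered libraries did not deviate together: correlations were -0.009, -0.029 and -0.019 for replicates 1, 2 and 3.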

Additional observations from a re-analysis of the deposited data

How the results depend on the processing

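Calls at the 2-fold limit and small differences depended on scaling. Of the 32 genes, 3 were called in the analysis as reported and 10 (4 higher, 6 lower) at a fold of at least 1.5; 0 were called lower with library size alone, upper quartile scaling or a mean of at least 50, and 0 to 1 when leaving out 1 library. Where 0 were called lower, SLC2A3 had kept the adjusted p but changed by less than 2-fold. The median log2 difference was 0.0562 with library size alone, 0.0245 with upper quartile scaling, 0.0183 with a mean of at least 50, -0.1009 with no filter and 0.0059 less the neighbour median; the cause was not tested. The sign turned for PFKL (-0.0081 with DESeq2, -0.0149 with no filter, -0.0154 without Delta-TRRAP replicate 1, -0.003 without WT replicate 1; -0.0154 to 0.0237 when leaving out 1 library), PFKFB4 (0.0149 with library size alone), PGAM1 (0.0784 with library size alone, 0.0466 with upper quartile scaling, 0.0183 with a mean of at least 50), ENO1 (0.1279, 0.0962 and 0.0678 under the same settings, and 0.0063 without Delta-TRRAP replicate 2; -0.0202 to 0.0063 when leaving out 1 library), PDHA1 (0.0339 with library size alone, 0.0023 with upper quartile scaling) and EP400 (-0.0261 without Delta-TRRAP replicate 2; up to 0.2873, without Delta-TRRAP replicate 3); none of the values with a turned sign passed the adjusted p. Hypoxia genes called were 3 with DESeq2, 2 with a mean of at least 50 and 2 to 4 when leaving out 1 library, against 5; regulators called were 2 with library size alone or upper quartile scaling, against 1. The rise in the share of all raw counts, 0.0889 percentage points without TMM scaling, was 0.113 without mitochondrially encoded genes. Replicate numbers named the libraries without pairing them; with the number as a replicate block 3 genes were called and 19 passed the adjusted p, against 21. Counts of genes past the adjusted p ran from 17 to 21 when leaving out 1 library. SLC16A3 fell under the filter at a mean of at least 50 and has no value there.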
